A study of Rattus norvegicus with 24 samples.

Results

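The data compare the CA1 field of the hippocampus between aged rats that learned a water maze poorly and aged rats that learned it as well as young rats. All animals were male Long-Evans rats, untreated and individually housed. The aged rats had been obtained at 8 to 9 months and were 24 to 26 months old. Total RNA of each rat went onto 1 Affymetrix rat expression array. Learning was scored in the Morris water maze from how near a rat swam to the hidden escape platform in probe trials. Aged rats inside the range of the young rats were labelled unimpaired (6 arrays with values) and aged rats that did worse were labelled impaired (8 arrays). These 14 arrays, chosen by their labels and age, are the members described here, of 24 samples in the whole series. The others are 9 arrays of young rats of 6 months, given as context only, and 1 aged unimpaired array that the submitters left out after quality control and whose column is blank. Each array is labelled as a separate biological replicate. Impairment is a division of the aged rats by their performance, so the impaired rats are not a treated group, and all rats were killed 2 weeks after the end of testing.

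CA1 pyramidal neurons are the main output cells of the hippocampus, and their receptive fields code places. Storing a spatial memory needs glutamate receptors at their synapses, calcium entry, kinases and a wave of activity-induced transcription. Old rats differ widely in how well they learn places, and the same strain has long served to set such differences beside measures of the hippocampus.

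The values are on a log2 scale, as the authors deposited them after GCRMA, which corrects the background of array probes and normalizes across arrays. A difference of 1 on this scale is a doubling. Of 31099 probe sets, those with 1 gene symbol and a log2 signal over 4 in at least 6 of the aged arrays were used, and the one of highest mean stood for its gene, which gave 9025 genes. Of the CA1 markers listed for checking the tissue, Wfs1, Fibcd1, Pou3f1, Mpped1, Man1a1 and Ccn3 were measured, at group means between 9.76 (Man1a1, impaired) and 12.50 (Mpped1, unimpaired), and Spink8 was not among the genes tested. Median signal differed little, at 4.24 ± 0.02 (SD, n = 8) on impaired and 4.22 ± 0.01 (n = 6) on unimpaired arrays. RNA quality was read from control transcripts, as the signal at their 3 prime end minus that at their 5 prime end, which was 1.35 ± 0.12 (SD, n = 8) on impaired and 1.42 ± 0.05 (n = 6) on unimpaired arrays, and a 2-sided exact permutation test gave p = 0.188. The labels name no batch.

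The first question was which genes differ in mean level between impaired and unimpaired old rats. Just 1 of 9025 genes passed limma's moderated test at an adjusted p under 0.05 (Benjamini-Hochberg over all genes), and it was lower in the impaired rats. That is 0.0111% of the genes tested, and 0% were called higher. The gene was Inhba, which codes for the beta A subunit shared by activins and inhibins and is induced in hippocampal neurons by synaptic activity. Its log2 signal was 4.07 at the lowest, 4.19 at the median and 4.41 at the highest in impaired rats, against 4.67, 4.75 and 5.30 in unimpaired rats. The groups did not overlap. The means were 4.21 ± 0.12 (SD, n = 8) and 4.86 ± 0.25 (n = 6), a log2 difference of -0.65 with a standard error of 0.09 and a limma adjusted p of 0.0411, or 1.57-fold more signal in the unimpaired rats.

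Inhba lay close to the dim limit of 4 in every impaired rat, and young rats spanned 3.67 to 6.48, wider than both aged groups together. A second Inhba probe set lay at 2.53 in both aged groups, below the limit on every array. The call rests on most of the arrays: leaving out 1 array moved the adjusted p between 0.0152 and 0.190, and it was over 0.05 without any 1 of impaired 1, 3, 4, 6, 7 and 8 or unimpaired 1, 2, 3 and 7. When the young arrays were fitted as well, so that their spread counted, Inhba had an adjusted p of 0.721. Its difference was -0.61 with the RNA control as a covariate (adjusted p = 0.240) and -0.67 with the level of the CA3 and CA2 markers minus that of the CA1 markers as a covariate (adjusted p = 0.159).

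**Figure D1:**
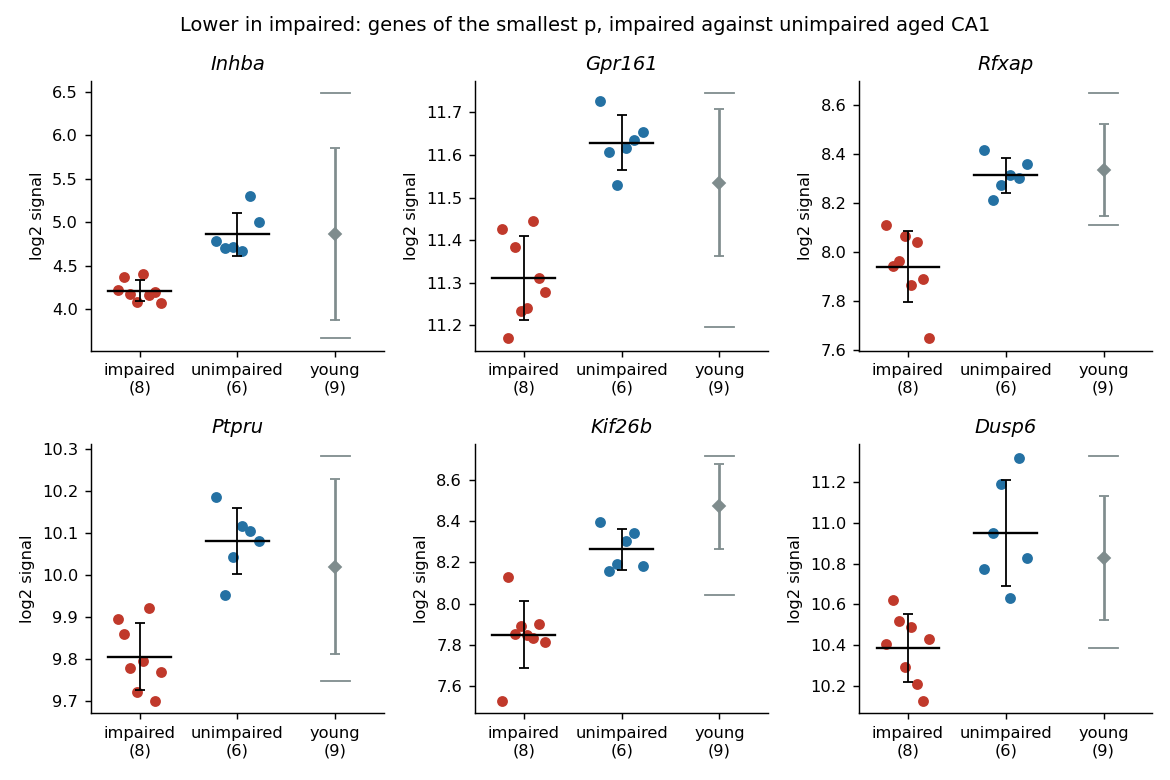
Log2 signal of the 6 genes with the smallest p among those lower in impaired rats, 1 point per aged rat, with group mean and SD as bars; grey diamonds give the mean and SD of 9 young rats and grey lines their lowest and highest value. In each panel every impaired rat lies below every unimpaired rat, and for Inhba the young rats spread from 3.67 to 6.48.

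A further 4 genes, all lower in impaired rats, had an adjusted p between 0.05 and 0.1. The promoters of Inhba, as the called gene, and of Ptpru, the member of these 5 whose window holds the full cAMP response element, are shown from RefSeq (GRCr8), as the 250 bases before the annotated start of the gene, 5′ to 3′ on the gene's own strand. Inhba lies on the minus strand at chr17:53804509-53804758 and Ptpru on the minus strand at chr5:149308834-149309083. Capitals mark the TATA box TATAAA, the sequence CCAAT, and the cAMP response element TGACGTCA, each searched on both strands.
Inhba: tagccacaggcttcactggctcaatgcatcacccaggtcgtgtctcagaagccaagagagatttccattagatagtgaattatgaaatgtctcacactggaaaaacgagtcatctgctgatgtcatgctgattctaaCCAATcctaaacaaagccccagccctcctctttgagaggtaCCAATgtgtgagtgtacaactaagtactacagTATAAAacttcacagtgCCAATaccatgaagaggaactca
Ptpru: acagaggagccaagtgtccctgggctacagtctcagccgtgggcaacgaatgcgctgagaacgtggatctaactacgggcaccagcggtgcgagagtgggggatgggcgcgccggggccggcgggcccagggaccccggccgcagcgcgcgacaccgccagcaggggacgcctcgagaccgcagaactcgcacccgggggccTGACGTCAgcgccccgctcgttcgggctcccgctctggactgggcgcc

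The Inhba window holds 1 TATAAA that begins 40 bases before the start, and 3 copies of CCAAT. Of 33469 RefSeq promoters of the same length, 12.9% hold TATAAA and 34.0% hold CCAAT, and among the 8543 that belong to genes tested here the shares are 6.12% and 35.3%. Ptpru holds TGACGTCA, beginning 48 bases before its start, which 1.59% of all promoters and 2.93% of those of tested genes hold. AP-1 sites (TGANTCA, N being any base) were found in neither window, and 6.34% of all promoters hold one. The Inhba window has 43.6% G and C and the Ptpru window 72.4%. These matches describe letters in the windows and nothing was measured there.

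Gpr161, an orphan receptor of the primary cilium that restrains Hedgehog signalling, came next. Its signal ran from 11.17 through a median of 11.29 to 11.44 in impaired rats and from 11.53 through 11.63 to 11.73 in unimpaired rats, again without overlap, a difference of -0.32 ± 0.05 (SE; limma adjusted p = 0.0664). Its second probe set differed by -0.31. The other 3 were Rfxap, a subunit of the factor that drives MHC class II genes, Ptpru, a receptor tyrosine phosphatase, and Kif26b, a kinesin family member, each with a limma adjusted p of 0.0847. Rfxap had means of 7.94 ± 0.15 (SD, n = 8) in impaired and 8.31 ± 0.07 (n = 6) in unimpaired rats. For Ptpru they were 9.81 ± 0.08 and 10.08 ± 0.08, and for Kif26b 7.85 ± 0.16 and 8.26 ± 0.10. The groups of all 3 were separate, although 2 other measured Kif26b probe sets differed by only -0.12 and -0.02. Kif26b also passed at 0.0293 when impaired 2 was left out, and Gpr161 passed with array weights (0.0490) and with a trended, robust fit (0.0198).

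Dusp6, the phosphatase that switches off ERK and is itself induced by ERK signalling, had the next smallest p. It ranged from 10.12 to 10.62 with a median of 10.42 in impaired rats, and from 10.63 to 11.32 with a median of 10.89 in unimpaired rats. The groups did not overlap. That is a log2 difference of -0.56 ± 0.11 (SE; limma adjusted p = 0.126), and its other 2 probe sets differed by -0.57 and -0.33. After it came Pou3f1, a transcription factor of CA1 pyramidal cells, at 10.67 ± 0.11 against 10.95 ± 0.08, then Cdyl2, a chromodomain protein, at 6.79 ± 0.29 against 7.34 ± 0.11, Sertm1 at 10.35 ± 0.14 against 10.67 ± 0.12 and Sfpq, a splicing factor, at 8.60 ± 0.13 against 8.91 ± 0.12. None of these passed the test, with limma adjusted p from 0.194 to 0.30.

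On the higher side the smallest p belonged to Rbm3, an RNA-binding protein made at lowered body temperature and known to protect synapses. Its signal was 10.81 at the lowest, 11.28 at the median and 11.53 at the highest in impaired rats, against 10.57, 10.75 and 10.94 in unimpaired rats. In 6 of 8 impaired rats it was above every unimpaired rat, a difference of 0.44 ± 0.10 (SE) with a limma adjusted p of 0.366, so it did not pass. Cirbp, the other cold-inducible RNA-binding protein, differed by 0.25, although the mean of its probe sets gave -0.17. The next were Tmem106c (0.39), Ctc1, a telomere maintenance factor (0.17), Lgi3, a secreted neuronal protein (0.29), Csf1r, the receptor that keeps microglia alive (0.25), and Opalin, a protein of central myelin (0.34). Behind them stood Ncald, a neuronal calcium sensor (0.35), Etfb, which passes electrons to the respiratory chain (0.19), Tns2 (0.38) and Gltp, a glycolipid carrier (0.31). Their limma adjusted p lay between 0.426 and 0.532. The second, dimmer probe set of Ncald differed by 0.52 ± 0.08 (SE).

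By sign alone, 4277 of 9025 genes had a higher and 4748 a lower mean in impaired rats. Over all genes, 283 were higher (3.14%) and 379 lower (4.20%) in impaired rats at an unadjusted p under 0.05, together 662 (7.34%). Which side is larger depended on the scale and on which arrays were fitted: 460 were higher and 341 lower after each array was centred on its median, 419 and 405 after quantile normalization, and 577 and 332 without impaired 7 and 8. The median standard error of a difference was 0.071. Differences over 0.5 were seen for 38 genes and over 1 for 4, namely Rnf6 (-1.34), Ptk2b (-1.32), Cpne4 (1.23) and RT1-N2 (1.07), whose values in single rats are given further on. Groups without overlap were seen in 15 genes (0.166%), 12 with the impaired rats below (0.133%) and 3 with them above (0.0332%). The 12 included the 6 genes of the plot of single rats and Pygo2, a cofactor of Wnt signalling, at 6.91 ± 0.13 against 7.14 ± 0.06. The 3 above were Ctc1, Bfar and Miip, and the last 2 differed by only 0.06 and 0.07. Leaving out 1 array raised the count to between 18 and 38.

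The genes of activity-induced transcription lay lower as a list. Of 20 measured immediate early and activity-induced genes, 16 had a lower mean in impaired rats, with a median difference of -0.16, against a median of -0.01 over all genes. At an unadjusted p under 0.05, 4 of the 20 were lower and 0 higher by limma, beside 4.20% lower over all genes, and none passed the adjusted threshold. They were Dusp6, Homer1, a scaffold of glutamate synapses whose short form is induced by activity (10.12 ± 0.15 against 10.32 ± 0.05), Klf6, a zinc finger factor (7.07 ± 0.21 against 7.37 ± 0.23), and Egr2, a factor induced with synaptic plasticity (3.90 ± 0.11 against 4.21 ± 0.36, near the dim limit). Egr2 was over that limit on 6 of the 14 arrays, the fewest the filter allows, with its impaired mean below it. Its place among the 4 therefore depends on the filter. The other, dimmer Homer1 probe sets were also lower, by between -0.21 ± 0.09 and -1.59 ± 0.66 (SE). Which of the Homer1 probe sets read the short form was not checked. Arc, which moves glutamate receptors off synapses, was 9.85 ± 0.51 against 10.35 ± 0.50 and Egr1 10.92 ± 0.37 against 11.15 ± 0.20, and neither passed (limma adjusted p = 0.688 and 0.772). The difference of Egr1 was -0.24, and -0.12 without impaired 7. Impaired 7 had the lowest level of the whole list (-0.43 relative to the mean of the aged rats), and without it the median was -0.13.

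Protein folding genes showed the same side. Of 43 measured cytosolic and endoplasmic reticulum chaperones and their regulators, 37 had a lower mean in impaired rats, 11 at an unadjusted p under 0.05 (4.20% of all genes), and 0 were higher at that p. The list's median difference was small, -0.06. Hspa5, the main chaperone of the endoplasmic reticulum, was 11.69 at the lowest, 11.86 at the median and 12.10 at the highest in impaired rats, against 12.00, 12.10 and 12.20 in unimpaired rats. In 7 of 8 impaired rats it was below every unimpaired rat, yet the limma adjusted p was 0.468. Bag3, a partner of HSP70 in clearing damaged proteins, differed by -0.18, Chordc1, a partner of HSP90, by -0.26 and Dnajb1, a heat-shock cochaperone, by -0.23. Relative to all aged rats, the mean level of the list spanned -0.13 (impaired 8) to 0.12 (impaired 2) in impaired rats and -0.01 to 0.14 in unimpaired rats. The count lower at that p was 7 without impaired 7 and 8, and 14 without impaired 2 and 5.

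Of 11 measured CA1 pyramidal markers, 4 were lower at an unadjusted p under 0.05 and 0 higher, beside 4.20% lower and 3.14% higher over all genes, and the list's median difference was -0.20. None passed the adjusted threshold. Besides Pou3f1 these were Itpka, an inositol trisphosphate kinase of dendritic spines (11.14 ± 0.15 against 11.36 ± 0.11), Wfs1, a membrane protein of the endoplasmic reticulum (11.11 ± 0.21 against 11.47 ± 0.25), and Mpped1. Synaptic genes had no common direction. Among 35 glutamate receptor and scaffold genes 17 had a higher and 18 a lower mean, and 23 of 34 genes of presynaptic release had a higher one, with a median of 0.05 and 0 genes at that p. In the glutamate list 3 genes were lower at that p and 0 higher, where 4.20% of all genes were lower: Gria1, the AMPA receptor subunit added during plasticity (11.68 ± 0.21 against 12.01 ± 0.22), Dlgap1, a scaffold of the postsynaptic density (11.49 ± 0.10 against 11.66 ± 0.11), and Grin2a, an NMDA receptor subunit (10.71 ± 0.39 against 11.12 ± 0.23). Grin1, the obligatory NMDA receptor subunit, was 10.42 ± 0.10 against 10.42 ± 0.09, and the list's median was -0.01, as for all genes, and 0.01 after centring. Kcnab1 and Kcnd2, subunits of the potassium channels that shape dendritic signals, differed by -0.18 and -0.24, and Kcnk2, a leak channel, by 0.40. In the serotonin and adrenergic families Htr5b differed by -0.28 and Adra2a by -0.28.

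Markers of neighbouring regions are given beside these results, and none of them passed the adjusted test. Of 12 measured markers of dentate granule cells 10 had a higher mean in impaired rats, 3 of them at an unadjusted p under 0.05 (3.14% of all genes), and 1 was lower at that p (4.20%), Calb1, which CA1 neurons also make. Prox1, which sets granule cell identity, was 7.81 ± 0.39 in impaired and 7.14 ± 0.52 in unimpaired rats, and the channel Trpc6 5.09 ± 0.20 and 4.75 ± 0.26. The list's mean level, relative to all aged rats, lay between -0.22 and 0.27 in impaired rats and between -0.24 and 0.04 in unimpaired rats. Of 17 CA3 and CA2 markers 13 were higher, 2 at that p (Pcp4, a regulator of calmodulin, by 0.37 and Cpne4, a calcium-dependent membrane binder, by 1.23), and Ociad2 differed by -0.15. Their mean level lay between -0.27 and 0.43 in impaired rats and between -0.17 and -0.01 in unimpaired rats, and without impaired 2 and 5 the list's median difference went from 0.12 to -0.01. Nts, in the list of thalamic, cortical and subicular neighbours, differed by -0.46. CA1 markers lay between -0.35 (impaired 7) and 0.08 in impaired rats and between -0.12 and 0.24 in unimpaired rats. The part of the dissection in the differences of the CA1 markers and the activity-induced genes was not tested.

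Glial lists lay on the higher side. Of 17 measured microglia and macrophage markers, 16 had a higher mean in impaired rats and 4 were higher at an unadjusted p under 0.05 (3.14% of all genes) with 0 lower, and the median difference was 0.18. Csf1r was 9.61 at the lowest, 9.77 at the median and 9.88 at the highest in impaired rats, against 9.39, 9.48 and 9.70 in unimpaired rats. Lyz2, a lysozyme, was 9.50 ± 0.14 against 9.25 ± 0.13, and Cx3cr1, the fractalkine receptor, 4.09 ± 0.24 against 3.74 ± 0.27, which straddles the dim limit. With its unimpaired mean below that limit, the place of Cx3cr1 among the 4 depends on the filter. Complement genes, listed apart, had no common direction: of 7 measured, 3 had a higher and 4 a lower mean. At that p 1 of them, C1qc, was lower and 0 higher, beside 4.20% lower and 3.14% higher over all genes. C1qa differed by -0.12. Of 23 oligodendrocyte and myelin genes 20 had a higher mean, 6 of them at that p, and 1 was lower (Cryab, a small heat-shock protein), beside 3.14% higher and 4.20% lower over all genes. Opalin ran from 9.44 through 9.69 to 9.99 in impaired and from 9.15 through 9.33 to 9.56 in unimpaired rats, and Tspan2, a tetraspanin of oligodendrocytes, averaged 10.69 ± 0.17 and 10.41 ± 0.13. Mbp, the bulk protein of myelin, was 14.47 ± 0.05 and 14.44 ± 0.02. In bulk tissue, more cells of a type and more RNA per cell cannot be told apart. The medians of the microglia and myelin lists kept their sign after centring or quantile normalization of the arrays.

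None of the genes often followed in the ageing hippocampus passed the adjusted test between the aged groups. Gfap, the filament of astrocytes, was 13.06 ± 0.22 in impaired and 12.96 ± 0.21 in unimpaired rats. Cd74, the invariant chain of MHC class II, was 7.38 ± 1.26 and 7.62 ± 1.18, and C3, the central complement protein, 6.95 ± 0.91 and 7.49 ± 0.82. The difference of C3 was -0.55, and -0.25 without impaired 1. Among interneuron genes Gad1, a GABA-making enzyme, differed by 0.16 and Reln, a secreted guide of synapses, by 0.30 (limma adjusted p = 0.590 for both), while Sst and Npy, neuropeptides of interneurons, differed by 0.04 and -0.03. Bdnf, a neurotrophin of plasticity, had a mean of 7.27 in both groups. Fkbp5 and Nr3c1, the chaperone and the receptor of glucocorticoid signalling, differed by -0.20 and -0.12. The largest standard error of a difference among these genes was 0.59, for Cd74.

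The second question was whether impaired rats differ from one another more than unimpaired rats do. They did over most genes: 6560 of 9025 genes (72.7%) had the larger standard deviation (SD) in impaired rats, after correction for the unequal numbers of arrays, and 2465 had it in unimpaired rats. The median SD was 0.145 in impaired and 0.103 in unimpaired rats, and the median log2 ratio of the SDs was 0.45, or 1.37-fold. An impaired SD over 2 times the unimpaired SD was found in 2309 genes and the reverse in 290. Genes are not independent, so this share carries no test of its own. With genes in 3 equal classes of signal, the ratio was 0.35 in the dimmest, 0.45 in the middle and 0.54 in the brightest class. Leaving out 1 array kept it between 0.35 (without impaired 8) and 0.54 (without unimpaired 5), and it was 0.25 without impaired 7 and 8 together, with 62.3% of genes still wider.

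The young rats place the difference between both aged groups. Their median SD over 9 arrays was 0.134. The median log2 ratio of SDs was 0.13 for impaired over young rats and -0.32 for unimpaired over young rats. Leaving out 1 array moved the first between 0.03 (without impaired 8) and 0.20, so its size rests largely on that rat, and the second between -0.39 and -0.26. Both ratios share the young arrays. The submitters left out 1 unimpaired array after quality control, and its part in the spread was not tested.

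**Figure D2:**
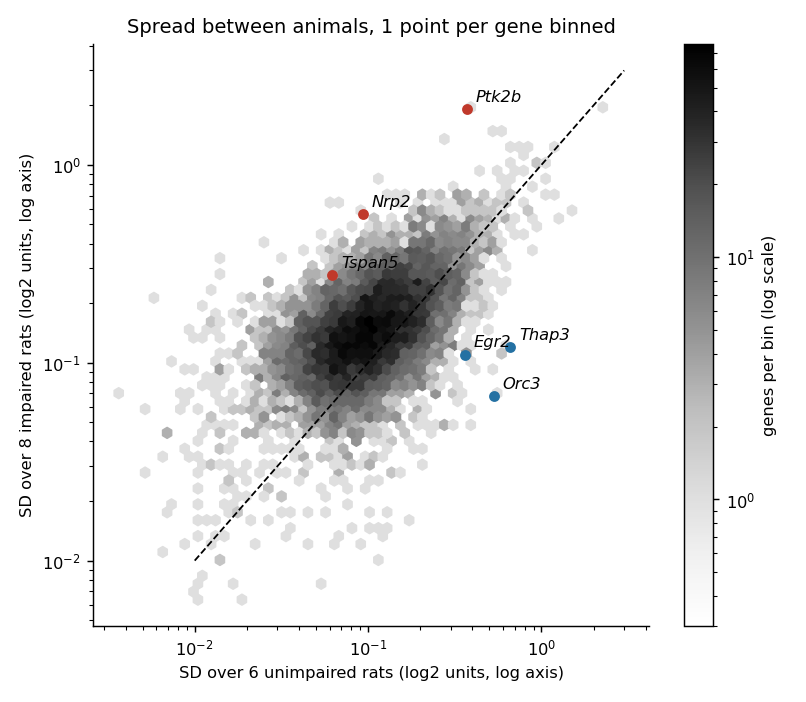
SD of log2 signal over 8 impaired rats against that over 6 unimpaired rats, on log axes, as a density of 9025 genes with the line of equal SD dashed; red points mark named genes wider in impaired rats and blue points named genes narrower. The density lies mostly above the line, with Tspan5 at 0.28 against 0.06 and Thap3 at 0.12 against 0.66.

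Gene by gene, limma's test on absolute deviations from the group mean called 0 genes (0%) after adjustment. Before it, 766 genes had p under 0.05 and were wider (8.49%) and 144 narrower (1.60%), together 910 (10.1%). An F test of variances per gene, which leans on normal values, called 70 genes after adjustment. The smallest adjusted p was 0.0516 and belonged to Tspan5 and Thap3. Tspan5, a tetraspanin that steers the protease ADAM10, ran from 9.03 through 9.39 to 9.73 in impaired rats and only from 9.36 through 9.40 to 9.53 in unimpaired rats. All 8 impaired rats lay outside the unimpaired range, 4 above and 4 below, with equal means in effect (9.39 and 9.42), and young rats ran from 9.13 to 9.46. Thap3, a zinc finger protein, showed the reverse, between 7.42 and 7.80 in impaired rats and between 6.26 and 7.85 in unimpaired rats, with young rats between 7.50 and 7.75.

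Nrp2, a semaphorin receptor on neurons and vessels, had an SD of 0.56 against 0.09. Its wide values lay on 1 side, with 7 of 8 impaired rats above all unimpaired rats and means of 6.93 and 6.28, a log2 difference of 0.65 that did not pass the test of means (limma adjusted p = 0.555). Other genes wider in impaired rats had values on both sides of the unimpaired range. Fndc5, the precursor of irisin, had 4 impaired rats above and 3 below the unimpaired range, with an SD of 0.23 against 0.05. Clk4, a splicing kinase, had the same counts at an SD of 0.18 against 0.03. Smap1, a regulator of ARF6, had 4 above and 4 below at 0.14 against 0.02. Neto1, a partner of kainate and NMDA receptors, Pianp, Hdgf, Rab3gap1, which regulates synaptic vesicle GTPases, and Plpp7 completed the 10 smallest p, with SD ratios from 3.37 to 5.37. Their limma adjusted p for spread lay between 0.196 and 0.386.

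Narrower in impaired rats were Orc3, part of the replication origin complex (SD 0.07 against 0.53), Gpt2, a mitochondrial transaminase (0.13 against 0.31), Tmem200c (0.18 against 0.42), Mtap, of methionine salvage (0.05 against 0.31), Nup98, a nucleoporin (0.04 against 0.17), and Edn1, a peptide that constricts vessels (0.09 against 0.52). Also among them were Timm44 (0.05 against 0.19), Egr2 (0.11 against 0.36) and Dusp1 (0.37 against 0.94), the latter both immediate early genes. A second, dimmer probe set of Gpt2 (0.28 against 0.10) and of Tmem200c (0.19 against 0.05) was instead wider in impaired rats. Dusp1 reached 8.26 in unimpaired 3 and Egr2 4.65 in the same rat. Without that rat the spread difference of Edn1, as the mean absolute deviation (corrected for the number of arrays) in impaired minus that in unimpaired rats, was -0.14 in place of -0.37, and without unimpaired 2 that of Mtap was -0.15 in place of -0.23. Egr2 passed the filter on the fewest arrays allowed, with an impaired mean of 3.90, below the dim limit. Egr2, Timm44 and Mtap were dim genes near a signal of 4 or 5. Limma adjusted p for spread lay between 0.296 and 0.478 in these genes.

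The wider spread was unequal among gene groups. Cytosolic ribosomal protein genes had the highest median log2 ratio of the lists with at least 10 measured genes, 1.16, with 34 of 35 genes (97.1%) wider in impaired rats, beside 0.45 and 72.7% over all genes. Rps24 lay between 13.25 and 13.28 in all 6 unimpaired rats and between 12.95 and 13.37 in the impaired rats. Rpl12, another ribosomal protein gene, had an SD of 0.13 against 0.06. The mean level of the list ran from -0.15 (impaired 3) to 0.12 (impaired 7) in impaired rats and from -0.03 to 0.01 in unimpaired rats. The median difference of means was 0.01. The ratio was 0.79 after quantile normalization and 1.11 without impaired 7 and 8. These genes are bright, abundant transcripts with near-identical pseudogene copies, so single probe sets may read more than 1 locus.

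CA3 and CA2 markers had the next highest ratio, 1.08, with 16 of 17 genes wider. Pcp4 lay between 9.91 and 10.99 in impaired rats and between 9.83 and 10.09 in unimpaired rats, and Elavl2, an RNA-binding protein of neurons, from 9.21 to 10.22 and from 9.36 to 9.55. Impaired 5 (0.43) and impaired 2 (0.37) had the highest list level and impaired 8 (-0.27) the lowest, and without impaired 2 and 5 the ratio was 0.90. Nuclear genes of oxidative phosphorylation (0.61, 86.7% wider), calcium signalling genes (0.66, 85.7%), astrocyte markers (0.62, 84.0%) and markers of oligodendrocyte precursors (0.70, all 10 genes) were also above the median of all genes. Without impaired 7 and 8 the calcium ratio was 0.26, beside 0.25 over all genes, and the ratios of the other 3 were 0.70, 0.48 and 0.62. Examples are Ndufa2, a subunit of complex I (SD 0.16 against 0.05), Sdhb of complex II (0.14 against 0.06), Ncald (0.23 against 0.05), Cbs, an astrocyte enzyme (0.14 against 0.03), and Olig1, a factor of the oligodendrocyte lineage (0.14 against 0.03). Dlg4, the main scaffold of the postsynaptic density, lay between 9.43 and 10.16 in impaired rats and between 9.63 and 9.79 in unimpaired rats.

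At the other end, 8 of 20 activity-induced genes (40.0%) were wider in impaired rats, with a median log2 ratio of -0.17. That ratio was -0.06 after centring, -0.04 after quantile normalization and -0.36 without impaired 7 and 8. Oligodendrocyte and myelin genes had a ratio of -0.01 and 47.8% wider, and glucocorticoid receptor and target genes -0.01 with 9 of 18 wider. The myelin ratio was 0.19 without impaired 7 and 8. No list was tested against the rest.

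**Figure D3:**
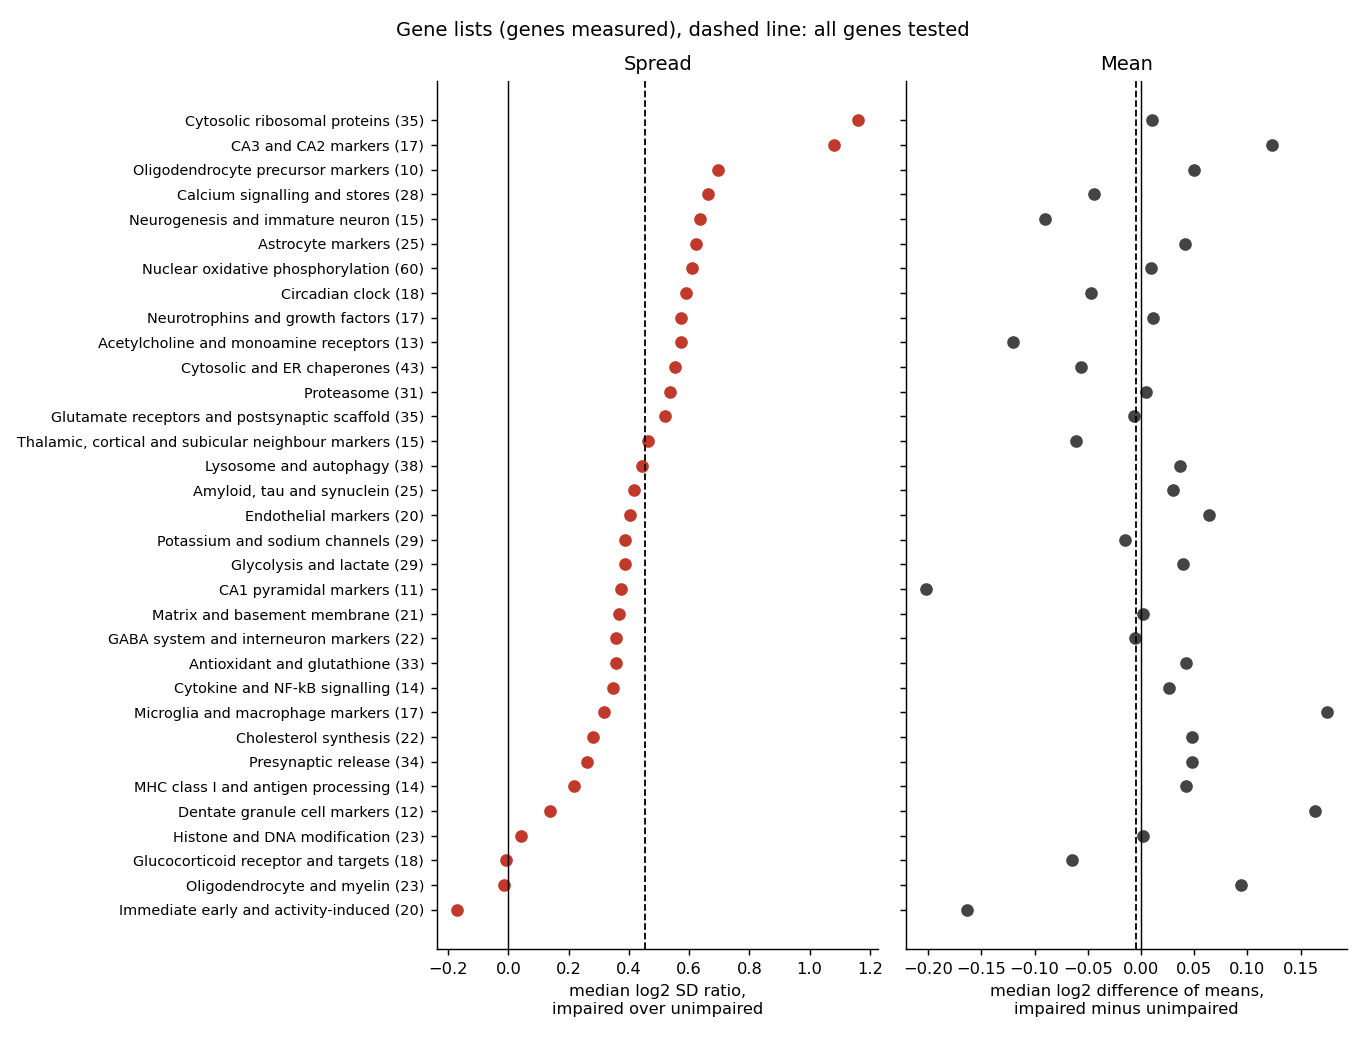
For each gene list with at least 10 measured genes (number in brackets), the left panel gives the median log2 ratio of SDs, impaired over unimpaired, and the right panel the median log2 difference of means, impaired minus unimpaired; the dashed line is the median of all genes tested. Ribosomal protein genes (1.16) and CA3 and CA2 markers (1.08) stand highest in spread, and activity-induced genes (-0.17) lowest, while microglia markers (0.18) and CA1 markers (-0.20) are the outermost in mean.

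Whole arrays were compared as well, and impaired arrays lay farther from the mean of their group. The distance of an array from the mean of its group, as root mean square over genes, was 0.201 ± 0.032 (SD, n = 8) in impaired and 0.158 ± 0.016 (n = 6) in unimpaired rats, with 5 of 8 impaired arrays above all unimpaired arrays (2-sided exact permutation p = 0.0110). The distances came from the labelled groups and were not recomputed in each split, so their p values are no strict test of spread. The median correlation with the other aged arrays was lower in impaired rats by a difference of -0.0011, with 5 of 8 below all unimpaired arrays (exact p = 0.0103). Adjusted over the 6 measures compared, both exact p values are 0.0330. Each lost that threshold when any 1 of the 6 unimpaired arrays was left out (exact permutation, adjusted p from 0.0513 to 0.145), and without impaired 7 and 8 the adjusted exact p values were 0.0519 for the distance and 0.0649 for the correlation. Impaired 8 held 20.3% of the squared deviation of the impaired group, impaired 7 15.1% and impaired 5 14.4%, and unimpaired 5 held 21.4% of that of its group.

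The leading axes of variation did not simply divide the groups. Component 1, with 20.03% of the variance over the 14 arrays, ran from impaired 5 (-14.7) to impaired 8 (20.4), and all unimpaired rats lay between -3.70 and 3.31 (exact permutation p = 0.973 for the difference of means). Ptk2b and Gad2 were among the highest loadings on one side and Cpne4, Vof16 and Aldh1a1 on the other. Its correlation with the RNA quality control was -0.42 over 14 arrays (Pearson, permutation p = 0.135; Spearman rho = -0.15, p = 0.616) and 0.26 without the 2 arrays farthest from the median of the control. Component 2 (12.2%) was higher in impaired rats by 6.74, with 5 of 8 above all unimpaired rats (exact permutation p = 0.0363, adjusted 0.0726), and impaired 7 was highest at 13.7. Genes of its positive side included RT1-N2, an MHC class I gene, Cbln2, a synapse organizer, Cyp26b1, which degrades retinoic acid, and Tshz2, and of its negative side Alb, Pclo, a scaffold of the active zone, and Rnf6.

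**Figure D4:**
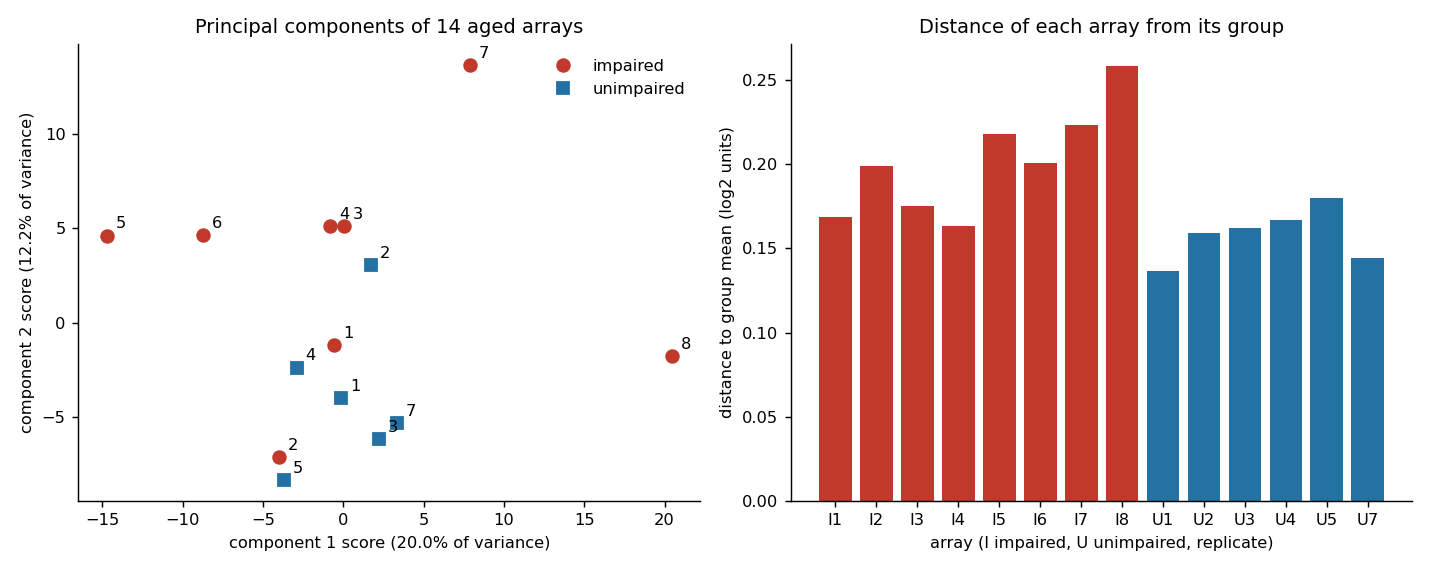
Left, scores of the 14 aged arrays on the first 2 principal components of 9025 genes, with replicate numbers; right, the distance of each array from the mean of its group in log2 units. Unimpaired rats (blue) lie between -3.70 and 3.31 on component 1, impaired rats (red) between -14.7 and 20.4, and 5 of 8 impaired bars exceed all unimpaired bars.

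The genes that varied most between rats of one group had a few animals far from the rest. Ptk2b, the calcium-activated kinase Pyk2 of CA1 neurons, was 6.30 in impaired 2 and 6.58 in impaired 5, while the other impaired rats lay between 9.62 and 11.23, all unimpaired rats between 10.07 and 11.22 and young rats between 9.93 and 10.88. Rnf6, a ubiquitin ligase, was 3.12 in impaired 1 and 5.12 to 7.33 in the other impaired rats, against 6.64 to 8.19 in unimpaired rats. Alb, plasma albumin, was 2.88 in impaired 3 and up to 7.22 in impaired 2, but only 6.16 to 6.77 in unimpaired rats. Cpne4, itself one of the CA3 and CA2 markers, was highest in impaired 2 (9.02) and impaired 5 (8.34), the rats in which Ptk2b was lowest, and ran from 4.74 to 6.07 in unimpaired rats. These 4 genes have an SD in impaired rats of 2.33 to 5.16 times that in unimpaired rats.

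Other highly variable genes spread widely in both aged groups. Vof16 lay near 4 or near 8 with few rats between, between 3.80 and 8.63 in impaired rats and between 3.81 and 8.58 in unimpaired rats. Cd74 ran from 4.79 to 8.60 and from 6.08 to 9.10, where young rats did not exceed 5.15. Serping1, an inhibitor of complement, ran from 4.27 to 7.96 and from 4.98 to 6.84, Hyou1, a chaperone of the endoplasmic reticulum, from 5.35 to 8.80 and from 5.85 to 8.36, and Mx2, an interferon-induced GTPase, from 6.11 to 9.20 and from 5.75 to 8.11. Ttr, transthyretin of the choroid plexus, reached 9.50 in impaired 6 and also in 1 young rat. RT1-N2 was 3.38 in unimpaired 5 and at least 5.97 in impaired rats, and Abcg2, a transporter of the blood-brain barrier, ran from 4.38 to 8.04 in unimpaired and from 5.25 to 7.55 in impaired rats. The remaining 3 of the 15 most variable genes were Nit2, Ythdf2, a reader of methylated RNA, and Cdkl4. A second, dimmer probe set of Ythdf2 had an SD of only 0.15 in impaired and 0.14 in unimpaired rats.

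**Figure D5:**
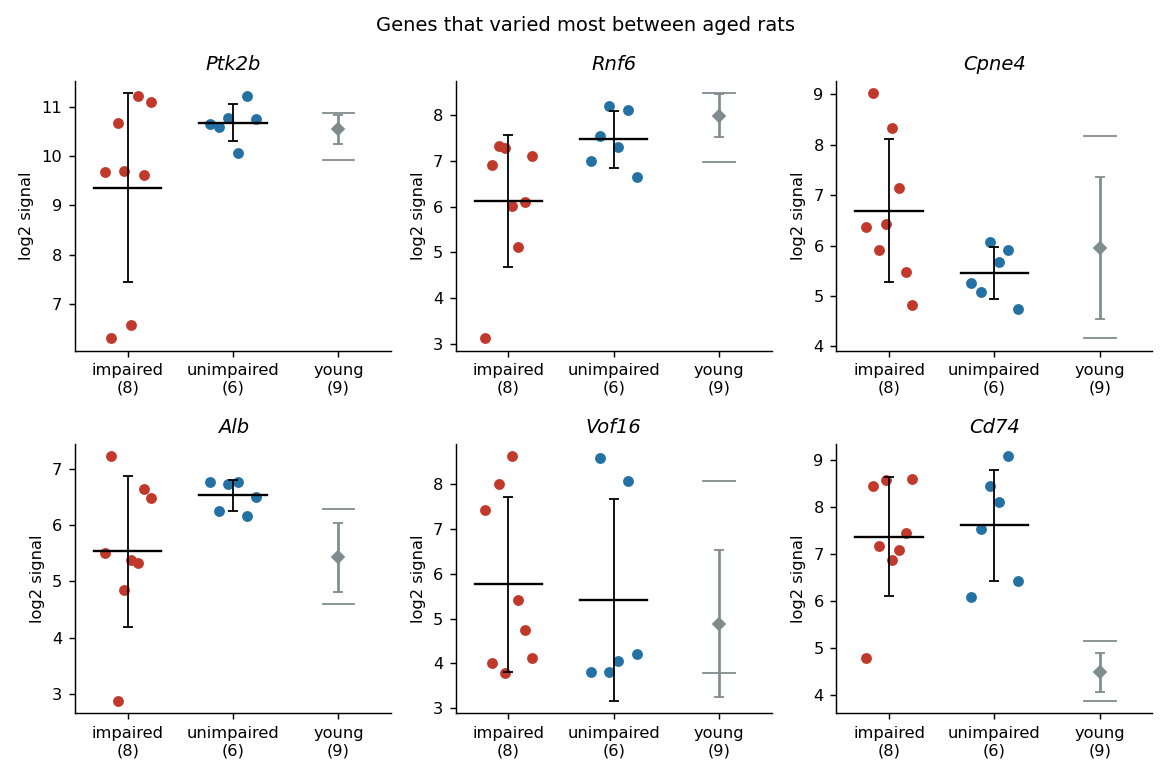
Log2 signal of 6 of the 15 genes with the largest SD within groups, 1 point per aged rat, with mean and SD as bars; grey diamonds and lines give mean, SD, lowest and highest value of 9 young rats. Ptk2b is low in impaired 2 and 5 (6.30 and 6.58), Rnf6 and Alb in 1 impaired rat each (3.12 and 2.88), and Vof16 and Cd74 spread widely in both aged groups.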

How the data were processed

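The deposited table held 31099 probe sets in 24 columns of log2 signals. GCRMA is the one tool that the submitters' processing notes name, without a version, and the authors' settings are not stated in the sources used here. The blank column was left out, and values were used as deposited. The column labelled young replicate 9 stands among the aged unimpaired columns, and no unimpaired replicate 6 is present. The labels give no reason and were followed. Probe sets were named from the platform annotation, with symbols updated to RefSeq by gene identifier: 20832 had 1 symbol (20764 matched), 436 several and 9831 none. The probe set of highest mean over the 14 aged arrays, among those over 4 in at least 6 of them, stood for each gene.

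Means were compared with limma 3.58.1 in R 4.3.3, on the 14 aged arrays only, and spread with the same moderated fit on absolute deviations from the group mean. P-values were adjusted by Benjamini-Hochberg over 9025 genes. The ratio of SDs corrects each log variance for its degrees of freedom. Single values per array were tested over all 3003 splits, with the value of each array held fixed. The correlation used 100000 resamples. Both tests were also run on simulated data. The limit set there on false calls covered the test of means and not the moderated test of spread. No recovery of planted differences was required of the moderated test of spread either. Its 0 calls therefore do not show that the spread of single genes was equal. With 1 array per rat, the number of arrays limits the precision.

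The members and the 42 gene lists were chosen with earlier results of these data known. The text names, for mean and for spread, the 10 genes of smallest p in a direction with under 5 called genes. It also names separated genes by gap, the 15 with the largest SD within groups, members of lists by p and a panel set by name. Genes of the largest loadings on components 1 and 2 are named as well. Genes outside that rule are Fibcd1 and Ccn3, which serve as tissue markers, and Per2, the clock gene lower at an unadjusted p under 0.05. Alternatives covered the filter, the probe set per gene, scaling, weights, moderation, covariates, young arrays in the fit, a block by replicate number, the measure of spread and leaving out each array. Replicate numbers did not pair the rats: deviations of same-numbered impaired and unimpaired arrays correlated between -0.24 and 0.13. Promoters came from RefSeq (GRCr8). Plots used Python 3.11.15 and matplotlib 3.10.9. One marker of the CA1 list is not reported here.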

Additional observations from a re-analysis of the deposited data

Results flagged for a closer look

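In 24 of 274 groups of values looked at (8.76%), 1 rat stood apart from the rest of its group by a gap that chance gives in about 1 of 20 groups. These groups include genes named for their wide spread, so 1 in 20 is no reference for their share. Over all genes tested, each single array stood apart in between 0.543% (impaired 4) and 3.89% (impaired 8) of genes. These are shares per array, and a group holds 8 or 6 arrays. The share of groups with a rat apart is therefore larger over all genes, and 8.76% does not compare with the share of 1 array. Whether the named genes hold more such rats than other genes was not tested. In impaired rats the high values were Tns2 at 7.47 in impaired 6, Gltp at 9.19 in impaired 3, Bfar at 7.23 in impaired 4, Miip at 6.76 and Dusp1 at 7.14 in impaired 2, Calb1 at 11.73 and Nit2 at 7.52 in impaired 4, Ttr at 9.50 in impaired 6, and Mx2 at 9.20 in impaired 7. The low values in impaired rats were Pygo2 at 6.63 in impaired 8, Bdnf at 5.96 and Egr1 at 10.12 in impaired 7, C3 at 4.88 and Cd74 at 4.79 in impaired 1, Dlgap1 at 11.27 in impaired 4, Ythdf2 at 6.37 in impaired 6, and Abcg2 at 5.25 in impaired 3.

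In unimpaired rats Gad2 was high at 6.91 in unimpaired 2 and Bag3 at 7.44 in unimpaired 5. Low there were Neto1 at 5.13 and Nkx2-2 at 6.64 in unimpaired 7, Trpc6 at 4.28 and Nts at 8.96 in unimpaired 4, and RT1-N2 at 3.38 in unimpaired 5. Without impaired 1 the difference of Cd74 was 0.13 in place of -0.24, and that of C3 was -0.25 in place of -0.55. Without impaired 7 that of Bdnf was 0.19 in place of 0.00 and that of Egr1 -0.12 in place of -0.24.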

How the results depend on the processing

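The number of genes called for the mean was 0 with no filter on dim probe sets, with a limit of log2 6, with every probe set on its own, with all 23 arrays, without moderation, with the RNA control or the CA3 and CA2 minus CA1 level as a covariate, and without impaired 7 and 8; it was 2 with array weights and with a trended, robust fit, 5 at an adjusted p under 0.1, and 0 to 2 when 1 array was left out. Replicate numbers do not pair the rats; with the replicate number as a fixed block 0 genes were called and 693 had an unadjusted p under 0.05, and with a random block 696 had one, against 662. The number called for spread was 2 with no filter, with a limit of 6 and at an adjusted p under 0.1, 1 without impaired 7 and 8, 70 by the F test of variances, and 0 to 3 when 1 array was left out. Genes wider in impaired rats at an unadjusted p under 0.05 numbered 1164 with no filter, 397 with deviations from the median, 347 with squared deviations and 1173 by the F test; narrower genes numbered 265, 46 and 87 in the first 3, 91 with a limit of 6 and 227 without impaired 7 and 8. The median log2 ratio of SDs was 0.254 with 62.3% of genes wider without impaired 7 and 8, and between 0.33 (quantile normalization) and 0.57 (median absolute deviation) under the others. Over all probe sets the array measures differed by -0.000458 for the correlation and 0.0395 for the distance (adjusted exact permutation p = 0.0540 for both), and without impaired 7 and 8 by -0.00083 and 0.0255. When 1 array was left out, the correlation differed by -0.00139 to -0.000933, the distance by 0.0331 to 0.0488 and component 2 by 5.20 to 8.17, which passed the threshold only without impaired 2. Genes whose groups do not overlap numbered 18 to 38 when 1 array was left out. With the mean of a gene's probe sets, the difference of Cirbp was -0.17 and the spread difference of Gja1 -0.013, both reversed. The causes were not tested. Signals near 4 on the log2 scale lie close to background, which limits Inhba, Egr2, Cx3cr1 and Timm44.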

Other observations

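Of 20 endothelial markers 16 had a higher mean in impaired rats and 3 were higher at an unadjusted limma p under 0.05 with 0 lower, beside 3.14% higher and 4.20% lower over all genes: Sox17, a factor of arterial endothelium (a log2 difference of 0.32), Slco1a4, a transporter of the blood-brain barrier (0.27), and Tek, the angiopoietin receptor (0.37, and 0.25 without unimpaired 7). Without impaired 7, where the list's level was highest, 2 were higher and 1 lower, and the list's median difference went from 0.06 to 0.03. All 9 measured pericyte and smooth muscle markers had a higher mean, with a median difference of 0.09, or 0.04 without impaired 7, and 0 at that p. Clock genes had no common direction: of 18, 8 had a higher and 10 a lower mean, the median difference was -0.05, and 3 were higher and 1 lower at that p, beside the same shares over all genes. Those higher were Dbp, a factor driven by the clock (0.24), Per3, a period gene (0.20), and Csnk1e, a kinase of period proteins (0.23). The lower one was Per2, also a period gene (-0.14). The hour at which each rat was killed was not given in the sources used here. Among 33 antioxidant and glutathione genes 26 had a higher mean, including Gstp1 (0.23) and Prdx2 (0.12), a transferase and a peroxidase. At that p 3 were higher and 1 lower, the transferase Gstm4 (-0.31), beside 3.14% higher and 4.20% lower over all genes. Ribosomal protein, oxidative phosphorylation, presynaptic release and glucocorticoid lists had 0 genes at that p in either direction, of 35, 60, 34 and 18 measured. No gene of these lists passed the adjusted threshold.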
